A study of Mus musculus with 6 samples.

Results

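The 10 genes described here encode the 3 transforming growth factor beta (TGF-beta) ligands Tgfb1, Tgfb2 and Tgfb3, the 3 receptors Tgfbr1, Tgfbr2 and Tgfbr3, the 3 latent TGF-beta binding proteins Ltbp1, Ltbp2 and Ltbp3, and Tgfbi, the TGF-beta-induced matrix protein. They were taken by gene symbol from a table of 33971 genes, and all 10 passed the filter on low counts that left 20397 genes for testing. The study sequenced messenger RNA of articular cartilage from wildtype mice, with 3 libraries of 2-month-old mice and 3 of 18-month-old mice, to follow gene expression of cartilage during aging. All 6 libraries carry the genotype label WT and the tissue label cartilage, none carries a treatment, and the study's methods describe male mice. The study's methods call its samples independent but do not say whether each library came from a separate animal or from pooled animals, and the p-values measure the spread between these libraries.

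TGF-beta is secreted in a latent form, bound to its own propeptide and, through it, to a latent TGF-beta binding protein that anchors the complex to fibrillin and fibronectin in the matrix. Once released, the ligand binds the type II receptor, which recruits and phosphorylates a type I receptor, and the type I receptor in turn phosphorylates Smad2 and Smad3. In articular cartilage this pathway is known for holding chondrocytes in their resting, matrix-producing state and for inducing lubricin, while the alternative type I receptor Acvrl1 routes the same ligands to other Smads.

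The sequence just upstream of a gene holds elements that can bear on its transcription, and it is shown here for 4 of the 10 genes, Tgfb1, Tgfb2, Ltbp3 and Tgfbi, because their RNA levels moved in different directions between the ages. The set of RefSeq (GRCm38.p6) promoter windows used here covered 8 of the 10 genes, not Tgfb3 and Tgfbr3, with 10 windows in all. Each held the 250 bases before a start that RefSeq gives the gene. RefSeq's starts are not always those of the count table, so that the windows of Tgfbi and Ltbp2 reach into the gene as the table places it, and the second windows of Ltbp1 and Tgfbr1 belong to starts that lie within those genes. The windows lie at chr7:25686752-25687001 on the plus strand for Tgfb1, at chr1:186705990-186706239 on the minus strand for Tgfb2, at chr19:5740650-5740899 on the plus strand for Ltbp3 and at chr13:56609336-56609585 on the plus strand for Tgfbi. They are written 5′ to 3′ on the strand of the gene, and capitals mark CAGAC (the core of a Smad-binding element), GGGCGG (the GC box that Sp1 binds) and TATAAA (the TATA box), on either strand.
Tgfb1: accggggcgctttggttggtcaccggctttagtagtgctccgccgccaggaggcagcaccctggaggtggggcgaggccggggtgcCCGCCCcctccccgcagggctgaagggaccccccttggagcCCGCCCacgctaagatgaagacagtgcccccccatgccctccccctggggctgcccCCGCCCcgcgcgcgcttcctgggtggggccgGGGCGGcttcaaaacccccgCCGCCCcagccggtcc
Tgfb2: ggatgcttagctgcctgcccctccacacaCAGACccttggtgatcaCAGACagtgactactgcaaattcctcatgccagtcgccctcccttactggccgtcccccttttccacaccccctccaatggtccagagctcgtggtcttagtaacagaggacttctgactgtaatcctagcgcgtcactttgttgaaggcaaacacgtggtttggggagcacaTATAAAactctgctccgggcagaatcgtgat
Ltbp3: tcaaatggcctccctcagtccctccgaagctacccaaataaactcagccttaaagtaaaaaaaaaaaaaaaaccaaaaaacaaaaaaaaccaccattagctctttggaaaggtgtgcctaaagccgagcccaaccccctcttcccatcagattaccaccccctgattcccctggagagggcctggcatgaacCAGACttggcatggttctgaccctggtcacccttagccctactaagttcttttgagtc
Tgfbi: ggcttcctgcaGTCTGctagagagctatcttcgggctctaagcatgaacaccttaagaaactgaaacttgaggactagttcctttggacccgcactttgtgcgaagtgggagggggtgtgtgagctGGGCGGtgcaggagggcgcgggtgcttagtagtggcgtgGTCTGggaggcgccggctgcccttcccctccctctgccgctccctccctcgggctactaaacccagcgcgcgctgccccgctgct
The Tgfb1 window held 5 GC boxes and no CAGAC, and 75.2% of its bases were G or C. The Tgfb2 window held 2 CAGAC matches and a TATA box whose first base lay 31 bases before the start. The Ltbp3 window held 1 CAGAC match, and the Tgfbi window held 2 CAGAC matches and 1 GC box. Such short matches are common. CAGAC occurred in 8 of the 10 windows of these genes and in 42.2% of 32851 promoter windows of this length, GGGCGG in 4 of the 10 and in 32.7% of all, and TATAAA in 1 of the 10 and in 12.4% of all. Of the other motifs searched, TGACGTCA (the cAMP element) was found in 1 window, that of Ltbp1, against 1.55% of all windows. The SMAD box GTCTAGAC, the AP-1 element TGANTCA and the SOX element AACAAT were found in 0 of the 10 windows, against 0.167%, 6.75% and 9.42% of all.

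The libraries differed in what the tissue label covers, and that stands beside every result below. Total counts ran from 48171507 to 51683577 at 2 months and from 55201357 to 59085179 at 18 months, and the 10 genes had between 243 and 22414 counts per library. A list of 12 chondrocyte genes took 4.05% to 6.39% of all counts at 2 months and 0.0593% to 0.150% at 18 months, and all 12 fell past both limits of the test. None of the 12 was at 0 in all libraries of an age. Chad, the most abundant of them, encodes the matrix protein chondroadherin and stood at 3837 FPKM ± 626 (SD, n = 3) against 53.3 ± 55.1. Lists of blood cell genes other than B lymphocytes ran the other way. The shares were 0.000598% to 0.329% against 3.75% to 4.04% for 8 neutrophil genes and 0.0146% to 0.377% against 1.57% to 2.13% for 6 erythroid genes. They were 0.00213% to 0.118% against 0.647% to 0.841% for 6 monocyte and macrophage genes, and 0.000499% to 0.00661% against 0.130% to 0.196% for 6 megakaryocyte and platelet genes. Every gene of these 4 lists was higher in all 18-month libraries than in all 2-month libraries, as were 33.9% of all genes tested. With the wide spread at 2 months, the genes that passed both limits were 2 erythroid genes, 1 monocyte and macrophage gene and 5 megakaryocyte and platelet genes. Over all genes tested, 14.9% rose past both limits and 21.3% fell past both limits. T and NK lymphocyte genes took 3.72e-05% to 0.00135% at 2 months and 0.0123% to 0.0139% at 18 months. The 6 B lymphocyte genes took 0.000199% to 0.0215% and 0.0152% to 0.0185%, so that the ages overlapped, and 0 of them passed both limits. Osteoblast and osteocyte genes took 0.396% to 1.62% at 2 months and 0.325% to 0.336% at 18 months. Xist, which is transcribed from the inactive X chromosome, had 88239 to 102417 counts at 2 months and 11 to 30 at 18 months, and the Y-linked gene Ddx3y had 0 to 10 and 4333 to 4839, so the pattern of the sexes divided the libraries as age did and the 2 cannot be told apart. In bulk tissue, fewer cells of a type and less RNA per cell cannot be told apart either, and the part of cell make-up in the values below was not tested.

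Within each age 1 library stood apart, and values without it are given where they matter. In 2-month replicate 2 the neutrophil list took 0.329% of counts, against 0.000598% and 0.00508% in replicates 1 and 3. In 18-month replicate 1 the chondrocyte list took 0.150%, against 0.0593% and 0.0603% in replicates 2 and 3.

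Of the 10 genes, 5 were lower at 18 months, 1 was higher and 4 did not pass both limits, which were a Benjamini-Hochberg adjusted p below 0.05 in edgeR's quasi-likelihood test over all genes tested (from here the edgeR adjusted p) and a log2 fold change beyond 1 in either direction. Over all 20397 genes, 21.3% were lower and 14.9% were higher by the same limits. The genes that fell were Tgfb3, Ltbp3, Tgfbr3, Tgfb2 and Tgfbr2, and the gene that rose was Tgfbi. By the adjusted p alone 6 were lower and 2 higher, where 27.9% and 23.4% of all genes were. The 3 libraries of one age lay entirely below those of the other, in scaled counts, for 6 genes that were lower and 2 that were higher at 18 months, and so did 34.6% and 33.9% of all genes. The median log2 fold change of the 10 genes was -0.92, and that of all genes was -0.02.

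**Figure D1:**
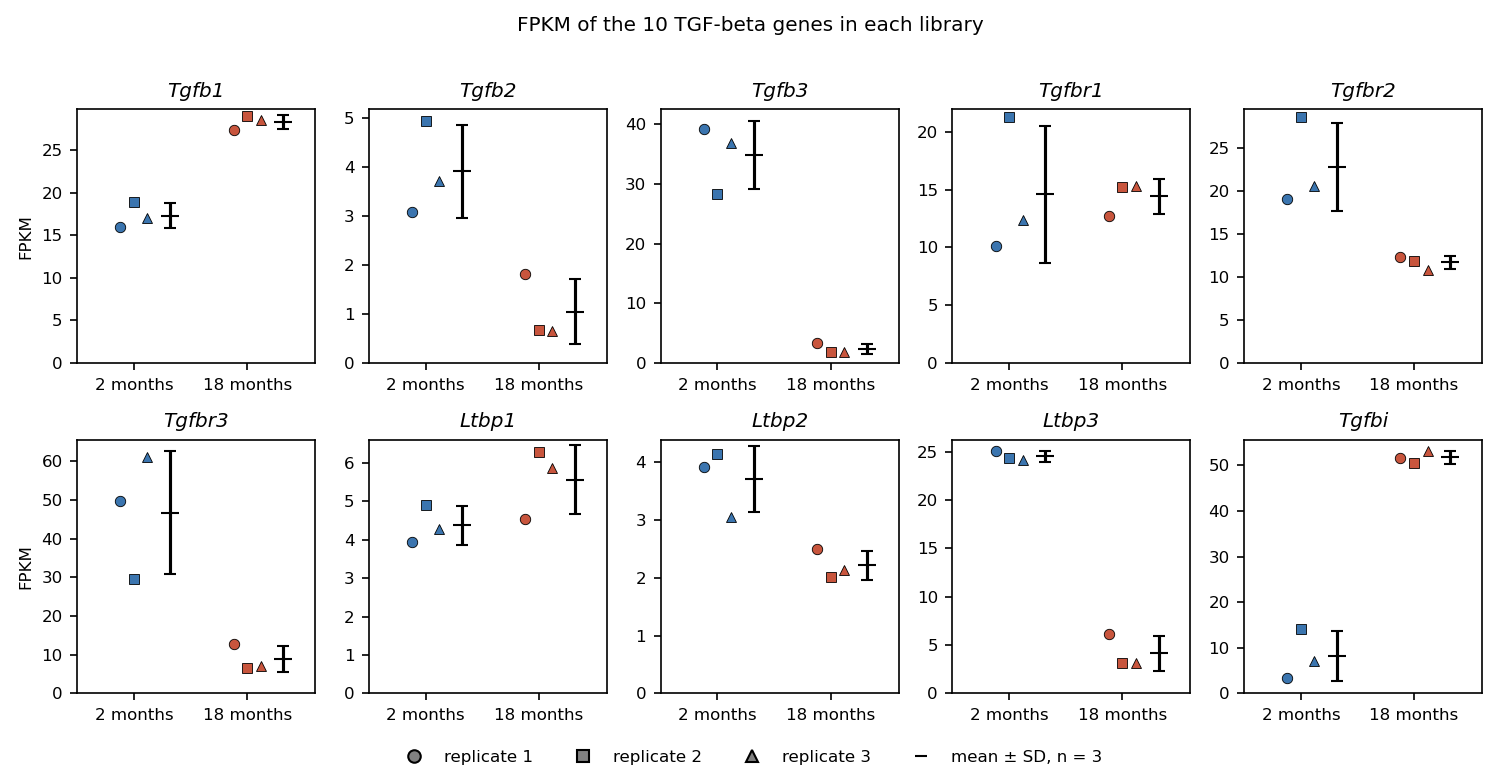
FPKM (fragments scaled by transcript length and library size) of each of the 10 genes in the 3 libraries of 2-month (blue) and the 3 of 18-month (red) cartilage, with the symbol giving the replicate and the black bars the mean ± SD. Tgfb3, Ltbp3 and Tgfbr3 sit far lower at 18 months, Tgfbi rises from 8.20 to 51.7, and the ages overlap for Tgfbr1 and Ltbp1.

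The ligands moved apart. Tgfb1 (ENSMUSG00000002603, chromosome 7, 25687002 to 25705077, plus strand, GRCm38), the most widely expressed of the 3, stood at 15.9, 18.8 and 17.1 FPKM in 2-month replicates 1, 2 and 3 and at 27.3, 28.9 and 28.5 in 18-month replicates 1, 2 and 3. All 18-month libraries lay above all 2-month libraries, and the spread within an age was small. The means were 17.3 ± 1.46 and 28.2 ± 0.843 (SD, n = 3), a log2 fold change of 0.63 with a standard error of 0.098 (edgeR adjusted p = 0.0042), which is inside the fold limit. When FPKM was rescaled to TPM, which sums to the same total in every library, the value was 0.27 (limma adjusted p = 0.10), on a scale on which the median of all genes was -0.33.

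Tgfb3 (ENSMUSG00000021253, chromosome 12, 86056745 to 86079041, minus strand), the ligand with the highest level in 2-month cartilage, stood at 39.2, 28.3 and 36.9 FPKM at 2 months and at 3.29, 1.82 and 1.9 at 18 months. Every 18-month value was below every 2-month value, and 18-month replicate 1 was the highest of its age. The mean fell from 34.8 ± 5.72 to 2.33 ± 0.827, which was 15.9-fold in the fit (log2 fold change -3.99, standard error 0.31, edgeR adjusted p = 0.0010). No other of the 10 genes changed as much in either direction. Without 18-month replicate 1 the log2 fold change of Tgfb3 was -4.29, and without 2-month replicate 2 it was -4.13.

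Tgfb2 (ENSMUSG00000039239, chromosome 1, 186622792 to 186705989, minus strand) was the least abundant ligand at both ages. Its level was 3.08, 4.94 and 3.71 FPKM at 2 months and 1.81, 0.685 and 0.655 at 18 months. The ages did not overlap, yet 18-month replicate 1 stood well above the other libraries of its age. The mean fell from 3.91 ± 0.950 to 1.05 ± 0.656, 3.94-fold (log2 fold change -1.98, standard error 0.44, edgeR adjusted p = 0.014). Without 18-month replicate 1 the log2 fold change of Tgfb2 was -2.58.

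Because of these changes the make-up of the ligand RNA turned over. Tgfb1 made up 27.4%, 36.2% and 29.6% of the summed FPKM of the 3 ligands at 2 months and 84.3%, 92.0% and 91.8% at 18 months, on average 31.0% ± 4.56 and 89.4% ± 4.41 (SD, n = 3). The share of Tgfb3 went from 61.9% ± 6.73 to 7.35% ± 2.43, and the ages did not overlap for either share. Tgfb2 made up 5.29%, 9.49% and 6.44% at 2 months and 5.58%, 2.18% and 2.11% at 18 months, and 18-month replicate 1 lay inside the 2-month range. A two-sided exact permutation test gave p = 0.1 for Tgfb1 and for Tgfb3, the smallest value that 3 against 3 libraries allow, and p = 0.2 for Tgfb2, with 0.14, 0.14 and 0.2 after adjustment over the 7 ratios tested. The design therefore cannot reach 0.05 for a single ratio. The summed FPKM of the ligands was 56.0 ± 3.37 at 2 months and 31.6 ± 0.690 at 18 months.

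**Figure D2:**
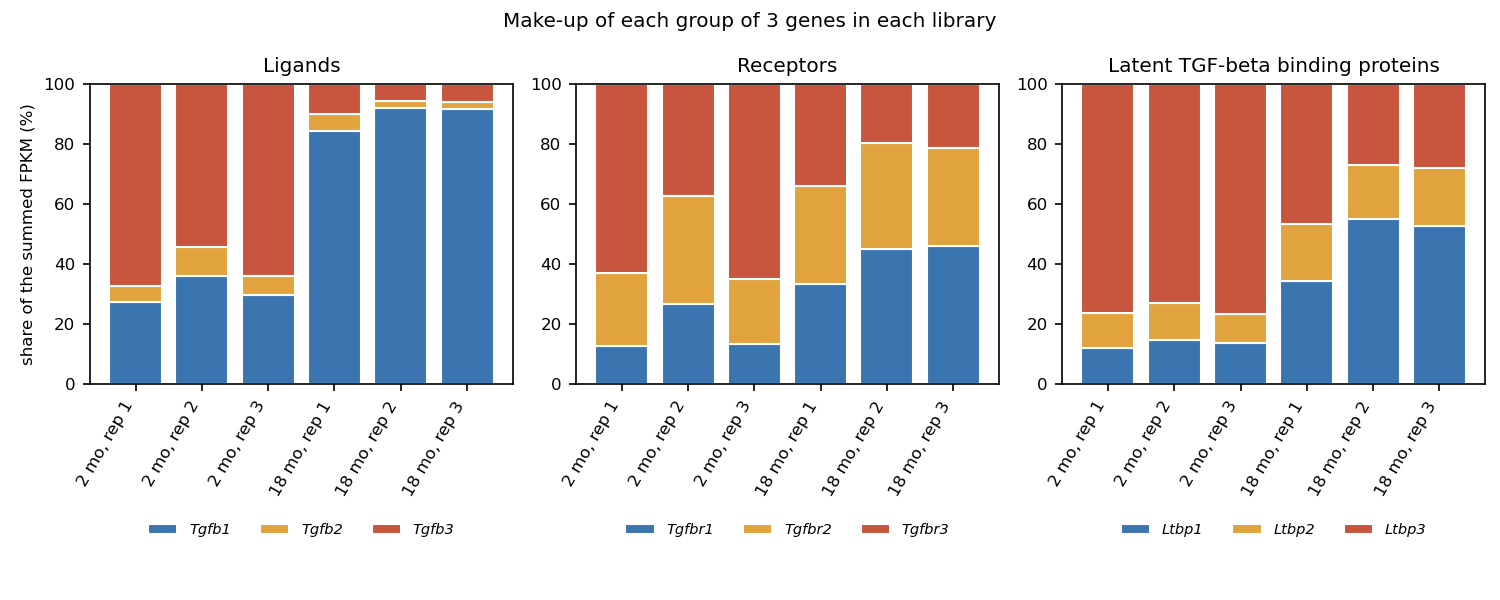
Share of each gene in the summed FPKM of the 3 ligands, the 3 receptors and the 3 latent TGF-beta binding proteins, as stacked bars that reach 100% in each of the 6 libraries (mo, months; rep, replicate). Tgfb1 (blue, left) makes up 27.4% to 36.2% of the ligand RNA at 2 months and 84.3% to 92.0% at 18 months, and Ltbp3 (red, right) shrinks from 72.9% or more to 46.7% or less.

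Among the receptors, Tgfbr3 (ENSMUSG00000029287, chromosome 5, 107106570 to 107289629, minus strand), the co-receptor betaglycan that presents ligand to the signaling receptors, had the largest difference. It was at 49.7, 29.5 and 61.0 FPKM at 2 months, where it was on average the most abundant of the 10 genes, and at 12.9, 6.68 and 7.12 at 18 months. The libraries that stood apart were the nearest to each other, 2-month replicate 2 being the lowest of its age and 18-month replicate 1 the highest, and the ages still did not overlap. The mean fell from 46.7 ± 15.9 to 8.90 ± 3.46, 5.65-fold (log2 fold change -2.50, standard error 0.41, edgeR adjusted p = 0.0049). With both of those libraries left out, an alternative chosen after seeing the data, the log2 fold change of Tgfbr3 was -3.09.

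Tgfbr2 (ENSMUSG00000032440, chromosome 9, 116084293 to 116175360, minus strand), the type II receptor that binds the ligand first, was at 19.1, 28.6 and 20.6 FPKM at 2 months and at 12.4, 11.9 and 10.9 at 18 months. All 18-month libraries were below all 2-month libraries. The mean fell from 22.8 ± 5.10 to 11.7 ± 0.769, 2.04-fold (log2 fold change -1.03, standard error 0.15, edgeR adjusted p = 0.0036). The value lies close to the fold limit, and the call was kept in 8 of 16 alternatives, which gave log2 fold changes from -1.37 to -0.86, while the adjusted p was below 0.05 in all 16.

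Tgfbr1 (ENSMUSG00000007613, chromosome 4, 47353222 to 47414931, plus strand), the type I receptor kinase ALK5, was at 10.1, 21.3 and 12.4 FPKM at 2 months and at 12.7, 15.2 and 15.3 at 18 months. The ages overlapped, since 2-month replicate 2 exceeded every other library and the other 2-month libraries were the lowest of all. The means were 14.6 ± 5.92 and 14.4 ± 1.49 (log2 fold change -0.08, standard error 0.26, edgeR adjusted p = 0.83), so no difference beyond the spread was detectable. The sign turned to 0.26 without 2-month replicate 2 and to 0.35 with 18-month replicate 1 left out as well (edgeR adjusted p = 0.053).

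The balance of the receptors shifted accordingly. The ratio of Tgfbr1 to Tgfbr2 in FPKM was 0.528, 0.745 and 0.602 at 2 months and 1.02, 1.28 and 1.41 at 18 months, with no overlap (exact permutation p = 0.1, adjusted 0.14). The ratio of Tgfbr3 to Tgfbr2 was 2.60, 1.03 and 2.96 at 2 months and 1.04, 0.560 and 0.655 at 18 months, and it overlapped between 2-month replicate 2 and 18-month replicate 1 (exact permutation p = 0.2, adjusted 0.2). The summed FPKM of the 3 receptors was 84.1 ± 8.58 at 2 months and 35.0 ± 2.54 at 18 months, and Tgfbr3 made up 55.0% ± 15.5 and 25.0% ± 7.78 of it.

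Acvrl1, the alternative type I receptor ALK1, was at 1.51, 3.29 and 1.56 FPKM at 2 months and at 8.61, 7.62 and 8.06 at 18 months. Every 18-month library was above every 2-month library, and Acvrl1 rose 3.65-fold (log2 fold change 1.87, standard error 0.29, edgeR adjusted p = 0.0045). Its ratio to Tgfbr1 was 0.150, 0.154 and 0.126 at 2 months and 0.679, 0.501 and 0.526 at 18 months, a 3.94-fold difference with no overlap (exact permutation p = 0.1, adjusted 0.14). Unlike Tgfbr1 itself, this ratio did not set 2-month replicate 2 apart from the other libraries of its age.

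The latent TGF-beta binding proteins also parted. Ltbp3 (ENSMUSG00000024940, chromosome 19, 5740904 to 5758532, plus strand), which binds latent TGF-beta and helps its secretion, was at 25.1, 24.3 and 24.1 FPKM at 2 months and at 6.18, 3.10 and 3.12 at 18 months. The 2-month libraries were close together, and 18-month replicate 1 stood well above the other libraries of its age. The mean fell from 24.5 ± 0.525 to 4.13 ± 1.77, 6.29-fold (log2 fold change -2.65, standard error 0.30, edgeR adjusted p = 0.0019).

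Ltbp2 (ENSMUSG00000002020, chromosome 12, 84783212 to 84876532, minus strand) is a fibrillin-binding matrix protein that, unlike its relatives, does not bind latent TGF-beta. It was at 3.92, 4.14 and 3.06 FPKM at 2 months and at 2.50, 2.02 and 2.14 at 18 months. The ages did not overlap, and the difference from 3.71 ± 0.570 to 2.22 ± 0.247 passed the adjusted p but not the fold limit (log2 fold change -0.82, standard error 0.14, edgeR adjusted p = 0.0059).

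Ltbp1 (ENSMUSG00000001870, chromosome 17, 75005568 to 75392512, plus strand), the main carrier of latent TGF-beta in many tissues, was at 3.93, 4.91 and 4.27 FPKM at 2 months and at 4.55, 6.29 and 5.85 at 18 months. Only 18-month replicate 1 fell within the 2-month range. The means were 4.37 ± 0.499 and 5.57 ± 0.907 (log2 fold change 0.28, standard error 0.16, edgeR adjusted p = 0.19), and on the TPM scale the sign turned to -0.09. Without 18-month replicate 1 the log2 fold change of Ltbp1 was 0.42 (edgeR adjusted p = 0.034), inside the fold limit.

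Together the 3 binding proteins summed to 32.6 ± 1.02 FPKM at 2 months and 11.9 ± 1.14 at 18 months. Ltbp3 made up 75.2% ± 2.07 of that sum at 2 months and 34.0% ± 11.0 at 18 months, and Ltbp1 made up 13.4% ± 1.41 and 47.4% ± 11.3. Relative to the summed ligands, these 3 genes were at 0.566, 0.640 and 0.546 at 2 months and at 0.408, 0.363 and 0.358 at 18 months. The ages did not overlap for this ratio (log2 difference -0.63, exact permutation p = 0.1, adjusted 0.14). It is not a ratio of carriers to ligands, since it counts Ltbp2, which does not bind latent TGF-beta, and leaves out Ltbp4. Ltbp4, a further latent TGF-beta binding protein, was at 1.62, 3.31 and 1.64 FPKM at 2 months and at 1.22, 1.15 and 1.03 at 18 months. The ages did not overlap, but 2-month replicate 2 stood well above the other libraries of its age. The log2 fold change of Ltbp4 was -1.01 (edgeR adjusted p = 0.029), which lies close to the fold limit.

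Tgfbi (ENSMUSG00000035493, chromosome 13, 56609523 to 56639562, plus strand) encodes a secreted adhesion protein of the matrix that was first found as a TGF-beta-induced gene. It was at 3.41, 14.1 and 7.05 FPKM at 2 months and at 51.7, 50.4 and 53.1 at 18 months. All 18-month libraries lay far above the 2-month libraries and close to each other, while the 2-month libraries spread widely with replicate 2 the highest. The mean rose from 8.20 ± 5.46 to 51.7 ± 1.35, 6.10-fold (log2 fold change 2.61, standard error 0.48, edgeR adjusted p = 0.0072). Without 2-month replicate 2 the log2 fold change of Tgfbi was 3.20. At 18 months Tgfbi was the most abundant of the 10 genes.

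**Figure D3:**
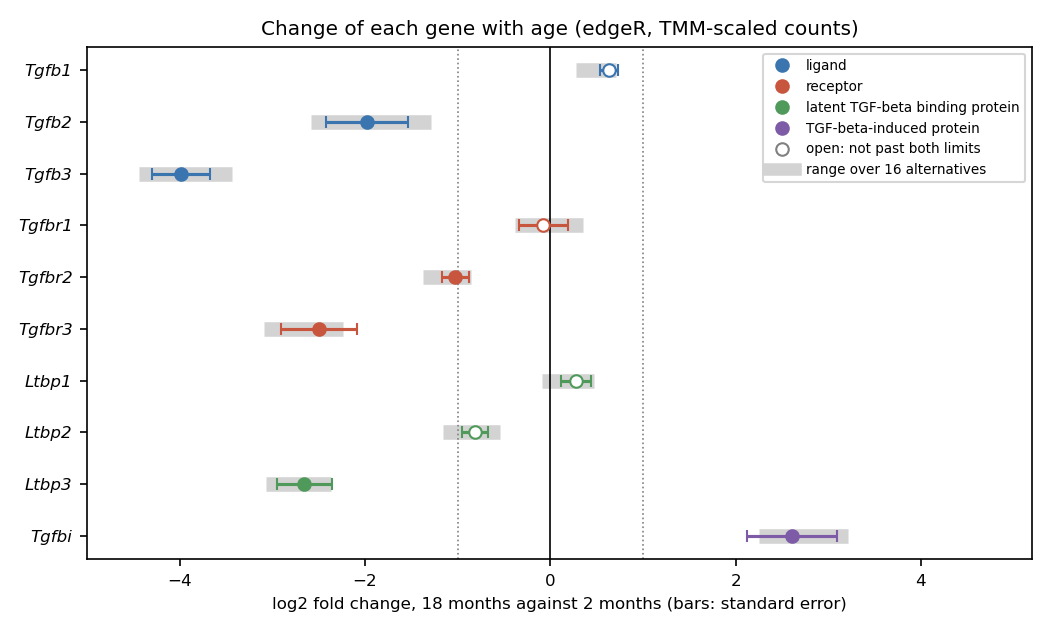
Log2 fold change of each gene at 18 months against 2 months in edgeR (points, with bars for the standard error), coloured by role, with dotted lines at the fold limit of 1 in each direction. Filled points passed both limits, open points did not, and the grey bands span the 16 alternative settings, which cross 0 for Tgfbr1 and Ltbp1.

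The order of the 10 genes by FPKM differed between the ages. At 2 months it ran Tgfbr3, Tgfb3, Ltbp3, Tgfbr2, Tgfb1, Tgfbr1, Tgfbi, Ltbp1, Tgfb2 and Ltbp2 from high to low. Neighbours in that order overlapped in range except for Tgfb3 above Ltbp3 and Tgfbr2 above Tgfb1. At 18 months it ran Tgfbi, Tgfb1, Tgfbr1, Tgfbr2, Tgfbr3, Ltbp1, Ltbp3, Tgfb3, Ltbp2 and Tgfb2, and neighbours overlapped for Tgfbr2 and Tgfbr3, Ltbp1 and Ltbp3, Ltbp3 and Tgfb3, and Tgfb3 and Ltbp2.

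Within an age, the genes did not vary alike. In 18-month replicate 1, in which the chondrocyte list was 2.50 times the mean of the other libraries of its age, Tgfb2 was 2.58 times, Ltbp3 1.91 times, Tgfbr3 1.80 times and Tgfb3 1.70 times that mean in scaled counts. Ltbp1 was at 0.721 times and Tgfbr1 at 0.799 times. In 2-month replicate 2, in which the erythroid list took 0.377% of counts against 0.0146% and 0.0416% and the osteoblast list 1.62% against 0.396% and 0.453%, Tgfbi was 2.45 times and Tgfbr1 1.72 times the mean of the other libraries of its age, and Tgfbr3 was at 0.484 times and Tgfb3 at 0.676 times. Thus 18-month replicate 1 had the highest Tgfb2, Tgfb3, Tgfbr3 and Ltbp3 of its age. It had the highest share of its age for the chondrocyte list, but also for the monocyte and macrophage list (0.841%) and the synovial and tendon fibroblast list (0.0213%). Its neutrophil, erythroid and megakaryocyte shares were the lowest. In 2-month replicate 2, Tgfbi was the highest and Tgfb3 and Tgfbr3 the lowest of their age. There Tgfb2 was at 1.32 times and Ltbp3 at 0.898 times the mean of the other libraries of that age. That library had the highest share of its age for every cell type list, chondrocytes among them. These are single libraries, and no test was made of them.

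**Figure D4:**
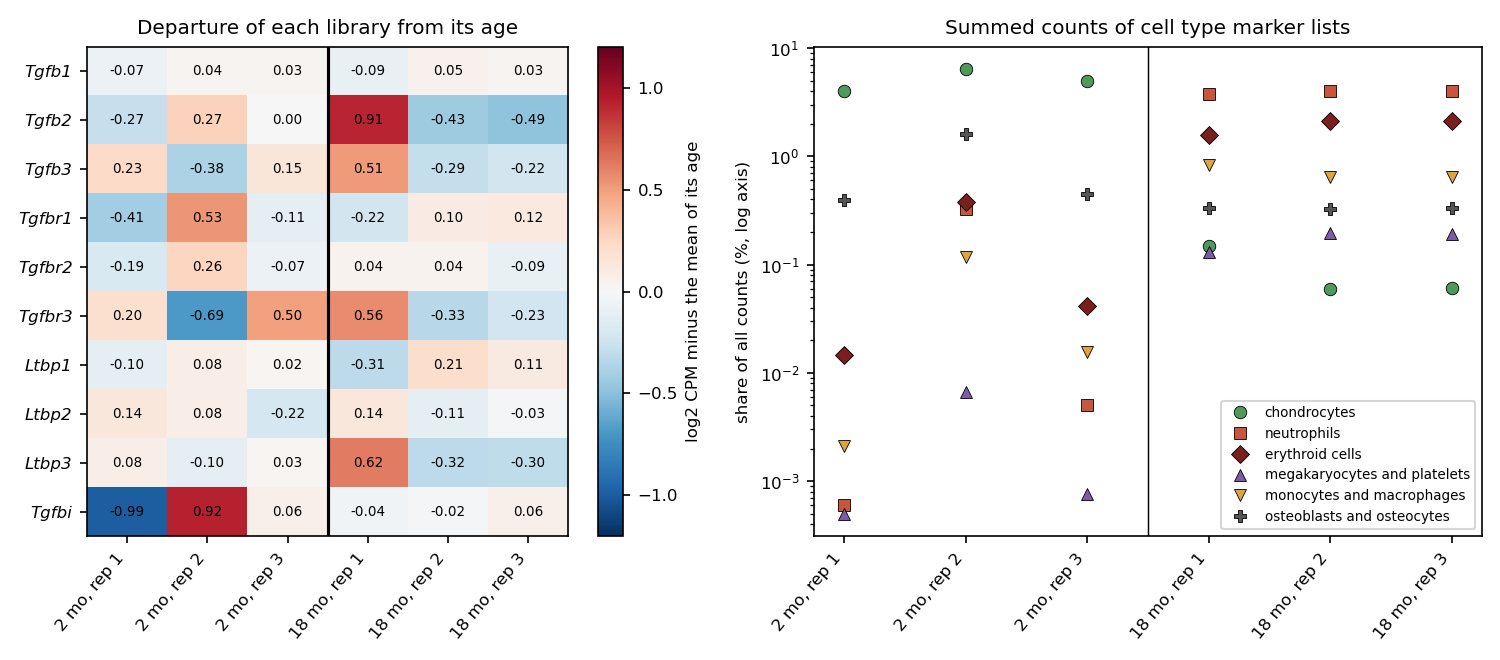
Left, log2 CPM (scaled counts) of each gene in each library minus the mean of its age, so that 0 is no departure and red is above the mean (mo, months; rep, replicate). Right, on a log axis, the share of all counts taken by 6 lists of cell type genes in the same libraries, in which chondrocyte genes fall from 4.05% or more to 0.150% or less and neutrophil genes reach 3.75% or more at 18 months.

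The other genes of the pathway were described by 4 lists that held 62 genes, of which 61 were tested. By both limits 27 were lower and 5 were higher at 18 months, where 21.3% and 14.9% of all genes were, and the median log2 fold change was -0.92. Without 2-month replicate 2 the number higher was 9, in a fit in which 23.3% of all genes were. Of the 15 tested genes of latency and activation, 7 fell and 2 rose (median -1.03), Itgb6 having too few counts to be tested, and the 2 that rose are a share close to the 14.9% of all genes. Without 2-month replicate 2 the number that rose was 3. Fbn1, the microfibril protein fibrillin-1 to which the binding proteins attach, was at 13.2, 13.6 and 22.6 FPKM at 2 months and at 2.87, 2.52 and 2.41 at 18 months, the largest fall of the list (log2 fold change -2.75, edgeR adjusted p = 0.0015). Nrros, which holds latent TGF-beta on the surface of macrophages and microglia, was at 0.998, 5.77 and 1.10 FPKM and at 29.3, 26.9 and 27.8, the largest rise (log2 fold change 3.39, edgeR adjusted p = 0.012). Nrros was thus highest among the 2-month libraries in replicate 2, as were the monocyte and macrophage list and every other cell type list. Mmp9, a protease that can release the ligand and the most abundant gene of the list, ranged from 1.08 to 472 FPKM at 2 months and from 262 to 267 at 18 months, so that the ages overlapped (log2 fold change 0.60, edgeR adjusted p = 0.77).

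Of 12 further receptors and co-receptors, 7 fell and 1 rose (median -1.60), against 21.3% and 14.9% of all genes. The gene that rose was Acvrl1. Without 2-month replicate 2 the number that rose was 2, in a fit in which 23.3% of all genes rose. Vasn, the most abundant, encodes vasorin, which binds TGF-beta outside the cell, and it fell from 37.8 ± 0.798 to 9.61 ± 3.21 FPKM (SD, n = 3, log2 fold change -2.06, edgeR adjusted p = 0.0020). Ldlrad4, an inhibitor of Smad phosphorylation at the receptor, had the largest fall, from 8.04 ± 0.796 to 1.05 ± 0.328 FPKM (log2 fold change -3.02, edgeR adjusted p = 0.0012).

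Of 20 genes of the Smad cascade and its regulators, 4 fell and 1 rose, and 15 did not pass both limits (median -0.65). The share that fell by both limits was about the 21.3% of all genes. By the adjusted p alone 11 were lower and 2 higher, where 27.9% and 23.4% of all genes were. The count by both limits moved with the scale. On log2(TPM + 0.1) in limma 10 fell and 0 rose, where 27.0% of all genes fell and the median of all genes was -0.33. On log2(FPKM + 1) 2 fell, where 10.3% of all genes did. Smad3, a transcription factor that the type I receptor phosphorylates, was the most abundant and fell from 33.7 ± 5.49 to 7.39 ± 0.865 FPKM (log2 fold change -2.28, edgeR adjusted p = 0.0012). Its partner Smad2 was at 4.80 ± 0.413 and 5.40 ± 0.676 FPKM and overlapped between the ages (edgeR adjusted p = 0.51); it was named after its values were seen, for the contrast with Smad3. Zfyve9, the anchor protein that brings Smads to the receptor, had the largest fall (log2 fold change -2.67, edgeR adjusted p = 0.0020), and Usp15, a deubiquitinase that acts on the type I receptor, was the gene that rose (log2 fold change 1.33, edgeR adjusted p = 0.0048), a call not kept on log2(TPM + 0.1).

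Of 14 known TGF-beta target genes, 9 fell and 1 rose (median -2.18), against 21.3% and 14.9% of all genes. Prg4, which encodes the lubricant lubricin of the cartilage surface, was at 6097, 2575 and 6475 FPKM at 2 months and at 1389, 272 and 266 at 18 months. The ages did not overlap, and Prg4 fell 8.56-fold (log2 fold change -3.10, edgeR adjusted p = 0.032). Within its age Prg4 was lowest in 2-month replicate 2 and highest in 18-month replicate 1, the same libraries as for Tgfbr3. Pthlh, the parathyroid hormone-related peptide that restrains chondrocyte hypertrophy, had the largest fall, from 12.5 ± 2.61 to 0.193 ± 0.150 FPKM (log2 fold change -6.07, edgeR adjusted p = 0.0016). Sphk1, a sphingosine kinase, was the target that rose, from 0.952 ± 0.835 to 6.76 ± 0.800 FPKM (log2 fold change 2.77, edgeR adjusted p = 0.024). This call was lost without 2-month replicate 3 and without any 1 of the 18-month libraries, when 0 targets rose. Without 2-month replicate 2 the number of targets that rose was 3, in a fit in which 23.3% of all genes rose. Tgfbi, itself known as a target, thus had the opposite sign to 9 of the 10 listed targets that passed both limits.

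**Figure D5:**
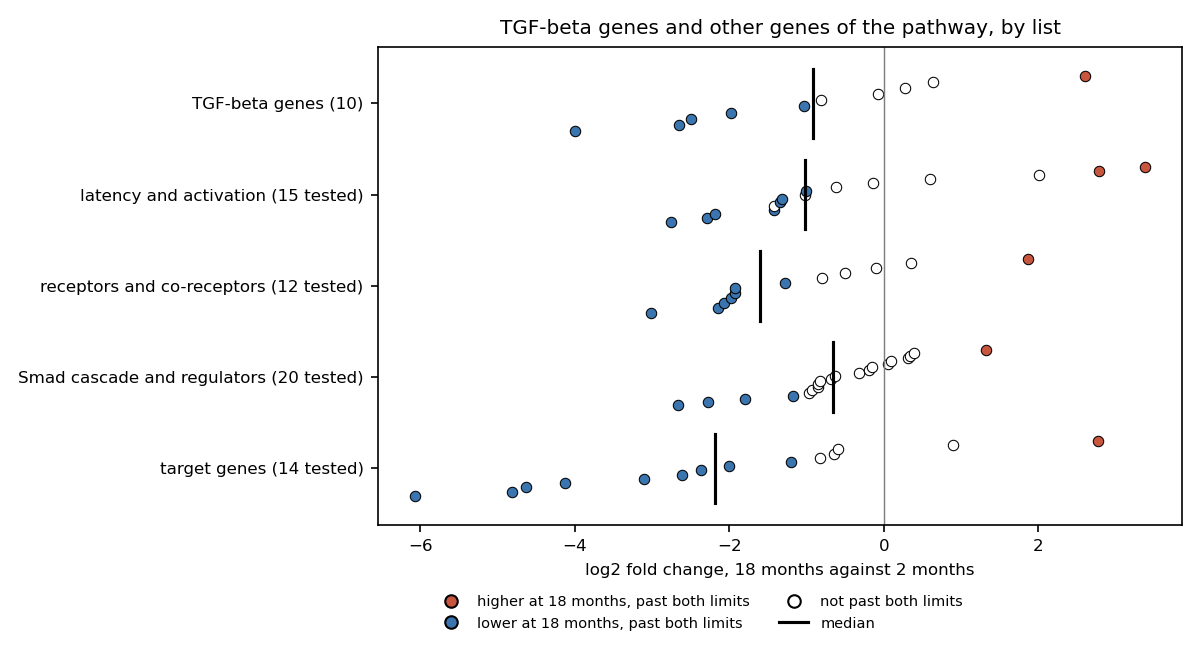
Log2 fold change at 18 months against 2 months of the 10 TGF-beta genes and of the tested genes of the 4 other pathway lists, with 1 point per gene (the height within a row only spreads the points) and a black line at each median. Blue points were lower and red points higher past both limits, and target genes have the lowest median, -2.18.

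The genes whose profile over the 6 libraries was most like that of each of the 10 were sought among 13890 other genes by the root mean square difference in log2 CPM (scaled counts), centred on each gene's mean. These are descriptions over the same 6 libraries, in which the difference between the ages dominates for most genes. Tgfb3 was closest to Usp53 (0.057) and Bmp8a (0.133), and Tgfbr3 to Foxo1 (0.069) and Gm49785 (0.125). Zfyve9 was among the genes nearest to Ltbp3 (0.066). Tgfbi was closest to Pag1 (0.075) and Rgs4 (0.117). Tgfb2 had the least similar nearest genes, Thsd4 (0.159) and Ttc26 (0.182), and Tgfb1 the most similar, Snrpb2 (0.036) and Wdr53 (0.040). The nearest genes of Tgfbr2 were Laptm4b and Dlg5, those of Tgfbr1 were Pyurf and Txnrd3, those of Ltbp1 were Nr2c2 and Gm17300, and those of Ltbp2 were Stn1 and Gm9726. Among the 10 genes themselves, the closest pairs were Tgfbr2 with Ltbp2 (0.206), Tgfb1 with Ltbp1 (0.220), Tgfbr1 with Ltbp1 (0.277) and Tgfbr3 with Ltbp3 (0.337). The most distant pair was Tgfb3 and Tgfbi (3.50).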

How the data were processed

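Messenger RNA of articular cartilage was sequenced in 3 strand-specific, paired-end libraries per age. As deposited, each gene has raw counts and FPKM values, in which the authors divided fragments by transcript length and library size. The submitters' processing notes name cutadapt 1.9, HISAT2 2.0.4, UMI-tools, StringTie 1.3.4d, DESeq2 and edgeR, without their settings; the build is not given in the sources used here. All 10 genes have the same coordinates in GENCODE M21 (GRCm38), as do 91.32% of the 33865 genes found there. All 6 libraries were used, and 0 columns with library values were left out.

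The tests used edgeR 4.0.16 (R 4.3.3) on the counts, with TMM scaling, filterByExpr and the quasi-likelihood test over 20397 genes, leaving replicate numbers out of the model, with Benjamini-Hochberg adjustment over those genes. A standard error is the absolute log2 fold change over the square root of F. Genes were called at an adjusted p below 0.05 and a log2 fold change beyond 1. Levels are FPKM, and ratios of FPKM within a library were tested by the exact permutation test. The median chi-square of counts between replicates was 6.32 to 48.7 times that of sampling noise, so all libraries were kept as separate samples. Libraries with the same replicate number showed no shared deviation from their age (correlations of 0.023, 0.035 and -0.011). With 3 libraries per age, 1 of them apart, such correlations cannot exclude a pairing. The scripts were tested on simulated data with known changes, in which the spread between libraries was capped. That test does not show how well changes are found at the full spread of these libraries.

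The alternatives were other scalings, no filter, DESeq2 1.42.0, limma 3.58.1 on log2(FPKM + 0.1), on log2(FPKM + 1) and on log2(TPM + 0.1), a replicate block, and each library left out. Leaving out 2-month replicate 2 and 18-month replicate 1 together was added after seeing the data. The genes and lists were chosen with earlier results of these data known. Named genes are the 10, the most abundant gene and the largest called rise and fall of each pathway list, the 2 nearest profiles of each of the 10 with mean FPKM from 1 upwards, Acvrl1, Xist, and the most abundant gene of each of 14 cell type lists, of which only those that bear on a result are given. Some results that this rule covers are not reported here. Ddx3y, Smad2, Itgb6 and Ltbp4 were chosen after their values were seen. Promoter windows are from RefSeq. Python 3.11.15 with matplotlib 3.10.9 made the figures.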

Additional observations from a re-analysis of the deposited data

How the results depend on the processing

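Over 16 alternatives, Tgfb2, Tgfb3, Tgfbr3, Ltbp3 and Tgfbi were called in the same direction in all 16, and Ltbp2 kept an adjusted p below 0.05, with log2 fold changes from -1.16 to -0.54. Of the 10 genes, 1 was called higher throughout, and the number lower was 4 to 6. Tgfbr1 changed sign with DESeq2 (0.0029), limma on log2(FPKM + 0.1) (0.049) and on log2(FPKM + 1) (0.042), when 2-month replicate 2 (0.26), 18-month replicate 1 (0.029) or both (0.35) were left out, and ranged from -0.26 to 0.26 over the fits that left out 1 library. Ltbp1 changed sign on TPM (-0.094). The cause was not tested. Tgfb1 missed the adjusted p only on TPM (0.27, adjusted p = 0.10 in limma), where the median of all genes was -0.33. The median of the 10 genes was -0.71 with limma on log2(FPKM + 1) and -1.26 on TPM. Pathway genes called higher numbered 9, in place of 5, without 2-month replicate 2 and with both libraries out, and 4 to 9 over the fits that left out 1 library. Pathway genes called lower ranged from 22 to 34.

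The replicate block left 1 gene higher and 5 lower of the 10, and 5 and 26 of the pathway lists, with a median log2 fold change of -0.91 for the 10 genes, and it changed no call among the 10. Over all genes it gave 2523 higher and 3509 lower, against 3047 and 4354. All-gene counts moved by more than 1.5 times to 5007 higher without 2-month replicate 2, to 4931 higher with both libraries out, and to 2217 lower with limma on log2(FPKM + 1). The share of calls that were higher was 41.2%, but 50.6% and 57.8% with limma on FPKM and 52.2% without 2-month replicate 2. With 3 libraries per age the exact permutation test of a ratio could not go below p = 0.1, and no ratio changed sign under any alternative.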
